A study of Caenorhabditis elegans with 2 samples.

Results

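The 9 genes described here encode parts of the membrane skeleton, the apical junction and the actin machinery of Caenorhabditis elegans: the spectrins spc-1, unc-70 and sma-1, the junction genes ajm-1, dlg-1 and hmr-1, the membrane linker erm-1, and the actin regulators wve-1 and zyx-1. They were chosen from 19973 nuclear protein-coding genes by name and from peaks seen in these same lists, so their peaks are given as a description with no test. A peak was counted at a gene when its summit lay inside the gene or in a promoter window, from 1000 bp before to 200 bp after any annotated transcript start.

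EGL-44, the worm TEAD transcription factor, was immunoprecipitated through a GFP tag with an anti-GFP antibody, and the bound DNA was sequenced (ChIP-seq). The animals were strain RW12173, which carries st12173, the egl-44::GFP insertion made by CRISPR with loxP and unc-119(+) sequences, together with unc-119(tm4063) on chromosome III. They were whole young adults aged 66.5 h, synchronised as L1 larvae starved after bleaching, and sex was not collected. The only group was 1 genotype at 1 stage with 2 biological replicates, so no comparison between conditions exists. Chromatin was sonicated to a stated size range of 200 to 800. In whole worms, a site bound in few cells cannot be told apart from a site bound weakly in many.

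Spectrins are long rod-shaped proteins that cross-link actin into a meshwork under the plasma membrane; in worms this meshwork protects axons from strain and shapes epithelia. The apical junction is a belt that holds epithelial cells together through a cadherin complex and, below it, a DLG-1 and AJM-1 complex. The WAVE complex and related regulators switch on branched actin assembly, which drives cell movement during embryonic enclosure. TEAD proteins bind DNA with the YAP coactivator in the Hippo pathway, which in other animals responds to cell shape and actin tension.

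Of the 9 genes, 5 (spc-1, unc-70, ajm-1, wve-1 and zyx-1) had a pooled peak, where the background over all nuclear protein-coding genes was 5.86%. Pooled peaks are the 1553 regions that the authors listed out of 1576 with a global irreproducible discovery rate (IDR) of 0.01 or less. The IDR measures how well ranks repeat between compared lists, and on the −log10 scale its limit is 2. Each replicate's own list belongs to that replicate alone, so its IDR is not a measure of agreement between the 2 replicates. In the promoter window the count was 4 of 9, against a background of 4.03%. Every annotated start has its own window, and ajm-1 has 14 starts and zyx-1 has 6. The peaks of ajm-1 and zyx-1 were counted there through internal starts, and the 4.03% was not matched for the number of starts. The 9 genes are long, from 4976 to 58913 bp, against a median of 2027 bp for all genes, and a longer gene has more room for a summit. Among genes at least as long as the shortest of the 9, the background for a peak in the gene or window was 11.1%. Because the genes were picked with these peaks known, nothing is read from the difference. A promoter window of 500 bp before to 100 bp after a start left 3 of the 9 genes, without spc-1 and wve-1 (background 4.95%). Giving each summit only to the nearest start also left 3, without unc-70 and wve-1 (background 4.36%).

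The replicates' own thresholded lists held fewer of the 9 genes. Replicate 1's list held 3 (background 3.23%), replicate 2's list held 4 (background 2.19%), and the same 3, spc-1, unc-70 and ajm-1, were in both (background 1.52%). The gene wve-1 was in replicate 2's list only, and zyx-1 in neither. In the unthresholded ranked list, which holds 79828 pooled regions, all 9 genes had a region, as did 77.9% of all protein-coding genes, so a ranked region alone says little. Signal values are the authors' own; their scale between lists is not stated, so they are compared within a list, and between lists by rank. The lists carry no read counts, and the depth behind these values is therefore unknown.

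**Figure D1:**
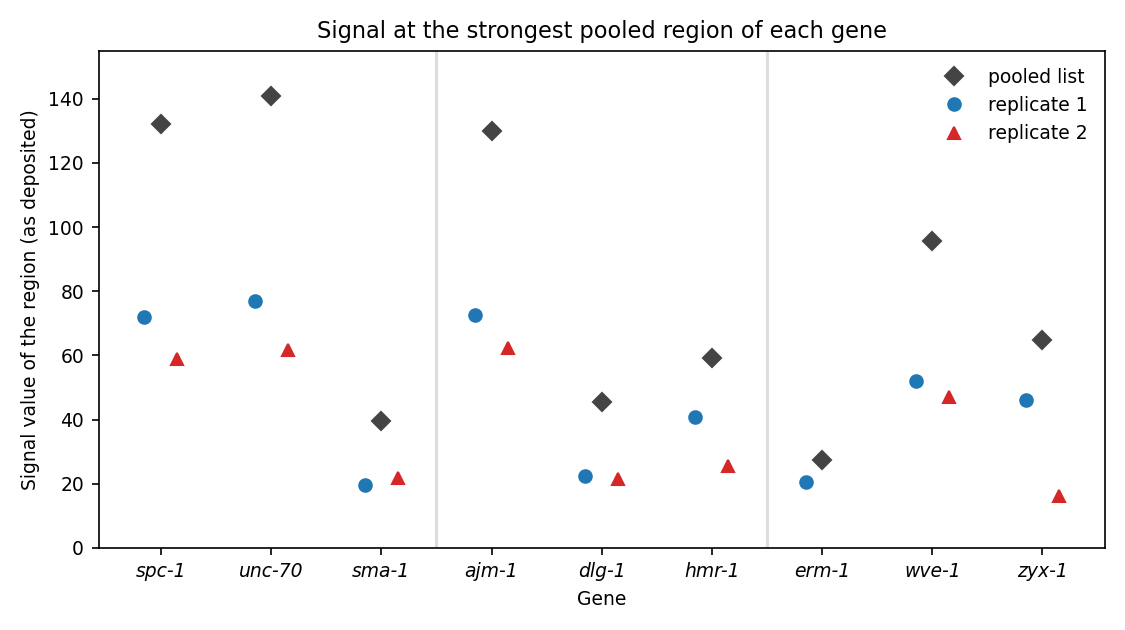
Signal value (y axis, as deposited) at the strongest pooled region of each of the 9 genes (x axis), in the pooled, replicate 1 and replicate 2 ranked lists (1 point per list; levels are comparable within a list only). The pooled points of spc-1, unc-70 and ajm-1 lie between 130.03 and 140.81, wve-1 is at 95.6, and the other 5 genes lie between 27.4 and 64.9; erm-1 has no replicate 2 point.

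The spectrin alpha chain gene spc-1 (WBGene00004951, chromosome X, minus strand, 3117439 to 3127079 in ce11) had a peak in front of its start. The pooled signal was 132.14, at chrX:3127657-3127966, with the summit 733 bp upstream of the start of transcript K10B3.10a.1. The signal was 72.1 in replicate 1 and 59.0 in replicate 2, and their summits lay 38 and 31 bp from the pooled one. Both replicates thus placed a strong region over the pooled summit, although their own summits lay on opposite sides of it. The region ranked in the top 0.252% of the pooled ranked list, the top 0.411% of replicate 1's and the top 0.543% of replicate 2's. The −log10 IDR was 3.86 pooled, 3.11 in replicate 1 and 3.44 in replicate 2. The next strongest separate region at spc-1 had a pooled signal of 40.3. No RNA gene lay within 1000 bp of the summit, and the nearest start of another protein-coding gene, K10B3.1, was 7674 bp away. The 201 bases centred on the summit are shown because this is the strongest of the peaks that lie upstream of one of the 9 genes; they are chrX:3127712-3127912 on the plus strand of the RefSeq genome WBcel235 (ce11), and capitals mark GAGAG on either strand.
spc-1 summit: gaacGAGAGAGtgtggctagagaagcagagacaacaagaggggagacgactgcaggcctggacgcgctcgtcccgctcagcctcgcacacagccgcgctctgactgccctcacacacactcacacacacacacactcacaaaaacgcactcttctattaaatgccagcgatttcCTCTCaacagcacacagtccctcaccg
CA repeats begin 10 bp to the right of the summit, and the GC content of the run was 56.7%, above 94.6% of the pooled peaks.

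A second pooled region at spc-1, chrX:3127860-3128169, overlapped the first, with a summit 936 bp upstream of the start. Its signal was 2.59, rank 1548 of 1553 by signal, although its −log10 IDR was 3.86. The pair therefore reads as 1 strong region with a faint neighbour that passed the same limit. Such neighbours occurred elsewhere in the list: 100 of the 1553 pooled peaks overlapped a stronger one, and all 48 with a signal below 10 were among them.

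The beta spectrin gene unc-70 (WBGene00006803, chromosome V, plus strand, 6881338 to 6891839) had the highest pooled signal of the 9 genes. The signal was 140.81 in the pooled list, 76.9 in replicate 1 and 61.7 in replicate 2. The region, chrV:6888893-6889202, lay in an intron, 7070 bp downstream of the nearest own start and 7710 bp from the start of the gene. It was far from the promoter, and the summits of the replicates were within 39 and 24 bp of the pooled one. The −log10 IDR was 4.32 pooled, 3.66 in replicate 1 and 3.15 in replicate 2. The summit fell inside the non-coding RNA gene K11C4.7 and 28 bp from the snoRNA gene K11C4.6, annotated on the plus strand at 6889076 to 6889145. Small nucleolar RNAs are a class that guides chemical modification of other RNAs. The sequence is shown for the position of that snoRNA gene, which capitals mark; it is chrV:6888948-6889148 on the plus strand of WBcel235.
unc-70 summit: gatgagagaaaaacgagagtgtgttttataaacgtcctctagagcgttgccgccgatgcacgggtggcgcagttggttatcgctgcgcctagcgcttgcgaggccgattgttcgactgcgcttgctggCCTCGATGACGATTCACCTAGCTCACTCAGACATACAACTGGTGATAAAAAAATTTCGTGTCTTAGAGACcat
The next strongest separate region at unc-70 had a pooled signal of 49.5. Whether the snoRNA gene or unc-70 is the source of the region was not tested.

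The beta-heavy spectrin gene sma-1 (WBGene00004855, chromosome V, plus strand, 11899449 to 11916623), whose loss gives short animals, had no pooled peak. Its strongest pooled ranked region, in a coding exon at chrV:11911078-11911387, had a signal of 39.5 in the pooled list, 19.6 in replicate 1 and 21.7 in replicate 2. It was in the top 11% of the pooled list, with an IDR of 0.267, the top 33.5% of replicate 1's and the top 15.1% of replicate 2's. The next strongest region at the gene had a pooled signal of 33.9. Of the 3 spectrins, alpha and beta had a pooled peak by the main rule and beta-heavy had none. The background over all nuclear protein-coding genes was 5.86%, and nothing is read from the difference. The unc-70 peak was lost without peaks at small RNA genes, and when each summit went only to the nearest start. The start of K11C4.2 was 6030 bp from that summit, against 7070 bp for the nearest unc-70 start.

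The apical junction gene ajm-1 (WBGene00000100, chromosome X, plus strand, 9082946 to 9113619) encodes a coiled-coil protein that marks the junction in worm epithelia. Its peak had a signal of 130.03 pooled, 72.5 in replicate 1 and 62.3 in replicate 2. The region, chrX:9091448-9091757, was in an intron, 682 bp upstream of an internal start (transcript C25A11.4k.1) and 8657 bp from the start of the gene. The summits of the replicates lay 3 and 0 bp from the pooled summit, the closest match among the 5 genes with a pooled peak. The −log10 IDR was 4.19 pooled, 2.57 in replicate 1 and 3.47 in replicate 2. The summit fell inside H08J11.t3, a gene for the glutamine tRNA, on the minus strand at 9091557 to 9091628, and inside the non-coding RNA gene H08J11.5. The non-coding RNA gene H08J11.13 and a second glutamine tRNA gene, H08J11.t2, lay 219 and 222 bp from it. Within 1000 bp there were 11 RNA genes, of which 5 were glutamine tRNA genes, and the sequence of H08J11.t3 occurs 16 times in the genome. How reads were assigned among these copies is not stated. The sequence is shown because the summit sits on that gene, which capitals mark as it reads on the plus strand, the reverse complement of the tRNA; it is chrX:9091503-9091703.
ajm-1 summit: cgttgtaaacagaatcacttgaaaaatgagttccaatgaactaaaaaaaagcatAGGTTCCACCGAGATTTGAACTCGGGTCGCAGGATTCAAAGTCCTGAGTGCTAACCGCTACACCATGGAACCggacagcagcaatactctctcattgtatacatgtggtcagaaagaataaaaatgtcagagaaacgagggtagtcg

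Replicate 1 also listed regions farther left in the same cluster of tRNA genes. The stronger, chrX:9090628-9090917, had a signal of 55.1 and an IDR of 0.00885, and the other a signal of 9.76. No pooled ranked region overlapped the stronger one. Replicate 2 had a ranked region there with a signal of 31.2 and an IDR of 0.17, above the limit. Among the pooled peaks on the nuclear chromosomes, 373 of 1537 (24.3%) lay within 300 bp of a tRNA, snoRNA, snRNA, rRNA or microRNA gene, and of the 6 peaks at the 9 genes, 2 did. Those 2 were the peaks of unc-70 and ajm-1, and without such peaks 3 of the 9 genes had a pooled peak, where the background over all protein-coding genes was 4.66%.

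The junction scaffold gene dlg-1 (WBGene00001006, chromosome X, plus strand, 5479700 to 5484941), the worm Discs large, had no pooled peak. Its strongest pooled region, chrX:5479317-5479626, lay 228 bp upstream of the start and had a signal of 45.5 in the pooled list, 22.4 in replicate 1 and 21.6 in replicate 2. It was in the top 6.82%, 23.3% and 15.6% of those lists, and the pooled IDR was 0.252. A second region, in an intron at chrX:5479844-5480153, had a signal of 39.3, and its IDR was 0.172 in the pooled list and 0.0388 in the conservative one. The signal there was 25.6 in replicate 1 (top 15%) and 29.5 in replicate 2 (top 4.71%), the strongest of replicate 2 at the gene. Replicate 1's own strongest region, 27.8, was in a coding exon. The non-coding RNA genes C25F6.11 and C25F6.26 lay within 300 bp of the intron summit. Neither the upstream nor the intron region reached the limit of 0.01 in any list.

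The cadherin gene hmr-1 (WBGene00001980, chromosome I, minus strand, 11075755 to 11134667), which joins neighbouring epithelial cells, is the longest of the 9 genes. It had 75 pooled ranked regions and no pooled peak. Its strongest region, at 11092658 to 11092967 in an intron, had a signal of 59.0 pooled, 40.8 in replicate 1 and 25.6 in replicate 2. It came nearest to the limit from outside: the −log10 IDR was 1.55 in the pooled list and 1.99 in the conservative one, where the limit is 2. In the replicates' own ranked lists it was farther from the limit, with an IDR of 0.135 in replicate 1 (top 2.63%) and 0.278 in replicate 2 (top 8.22%). Replicate 2's own strongest hmr-1 region was elsewhere, with a signal of 30.5. Per 10 kb, counting only summits inside the gene, hmr-1 held 12.6 pooled ranked regions, against a median of 9.12 over genes at least as long as the shortest of the 9.

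The linker gene erm-1 (WBGene00001333, chromosome I, minus strand, 5284026 to 5291604) encodes the worm ezrin, radixin and moesin protein, which ties actin to the apical membrane. It had the weakest strongest region of the 9 genes: 27.4 pooled, with an IDR of 0.595, in an intron. Replicate 1's region there had a signal of 20.5, and no replicate 2 region overlapped it. The pooled region was in the top 31.8% of its list, whose median signal was 21.1.

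The actin regulator wve-1 (WBGene00006958, chromosome I, minus strand, 11924541 to 11929516) encodes the WAVE protein, which activates the Arp2/3 complex. Its pooled peak, at 11929995 to 11930304, had a signal of 95.6, and the summit lay 634 bp upstream of the start. The signal was 52.0 in replicate 1 and 46.9 in replicate 2, and the summits were 30 and 12 bp from the pooled one. The 2 replicates differed in whether the region passed: the IDR was 0.0627 in replicate 1, above the limit, and 0.00211 in replicate 2. The region ranked in the top 1.24% and the top 0.986% of the replicates' lists, so both replicates ranked it near the top. The start of the divergent gene R06C1.4 was 615 bp away, so the summit lay in the windows of both genes and cannot be assigned to either.

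The focal adhesion gene zyx-1 (WBGene00006999, chromosome II, plus strand, 13056910 to 13071513) encodes zyxin, a LIM protein of muscle attachment sites. Its pooled peak, chrII:13066909-13067218, was just inside the limit, with a −log10 IDR of 2.18. The signal was 64.9 pooled, 46.2 in replicate 1 and 16.0 in replicate 2. The replicates did not repeat it alike: the region was in the top 1.76% of replicate 1's list and the top 39.8% of replicate 2's, and the IDR was 0.0127 and 0.605. The conservative list did not hold it, with an IDR of 0.191. The summit was in a 5' UTR, 55 bp downstream of an internal start and 10154 bp from the start of the gene. The summits of replicates 1 and 2 lay 0 and 79 bp from the pooled one. Replicate 2's own strongest zyx-1 region was elsewhere, in an intron, with a signal of 27.5 (top 6.22%).

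**Figure D2:**
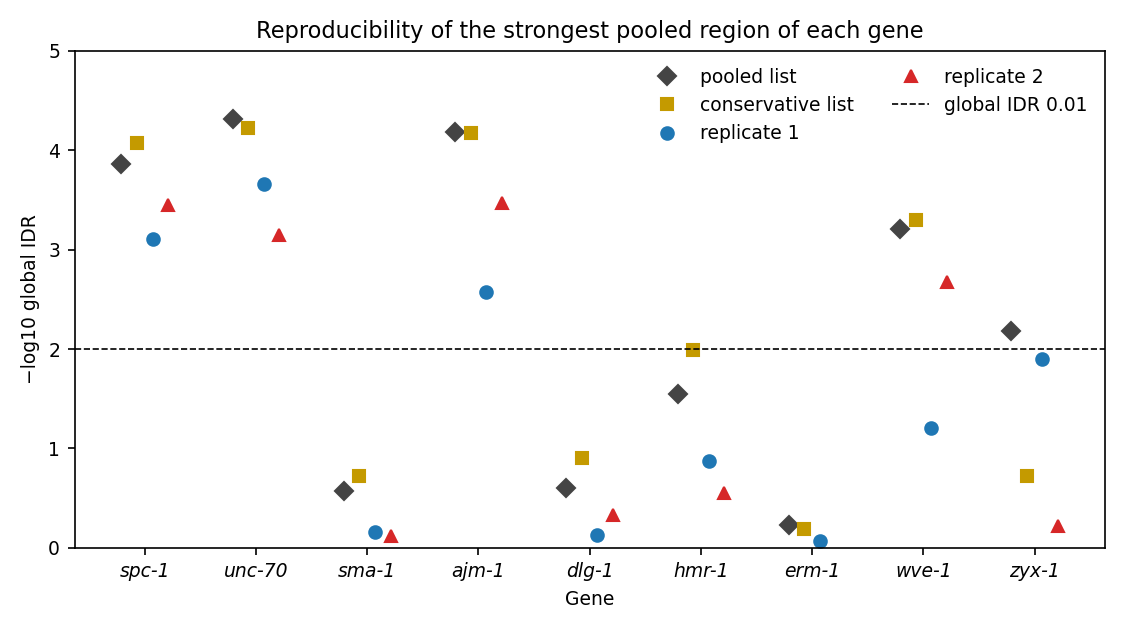
−log10 global IDR (y axis) of the strongest pooled region of each gene (x axis) in the ranked lists, with the limit of 2 as a dashed line. The genes spc-1, unc-70 and ajm-1 are above the line in the pooled, conservative and both replicate lists, wve-1 in the pooled, conservative and replicate 2 lists, and zyx-1 in the pooled list only.

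**Figure D3:**
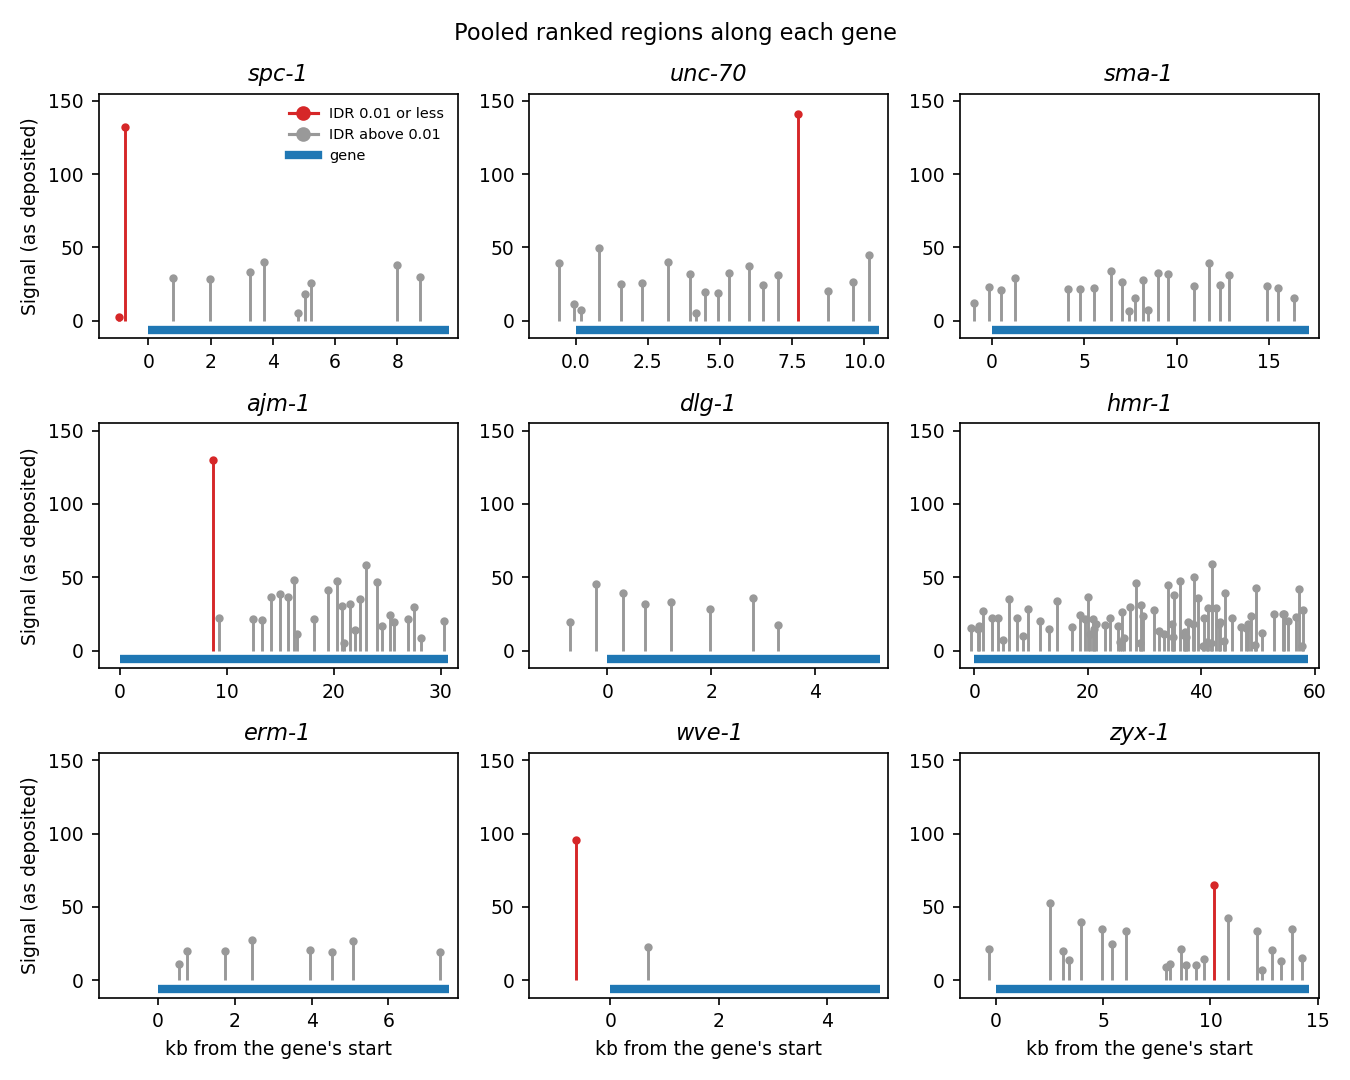
Signal (y axis, as deposited) of the pooled ranked regions along each of the 9 genes, plotted by distance from the gene's start in kb (x axis); red points are regions with an IDR of 0.01 or less and blue bars are the genes. The red points of spc-1 and wve-1 lie before the start, and those of unc-70, ajm-1 and zyx-1 lie inside the gene.

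The number of ranked regions at each gene differed between the replicates. At spc-1 the pooled, replicate 1 and replicate 2 lists held 11, 11 and 10 regions, and at unc-70 they held 19, 12 and 13. These are the 2 genes with nearly equal numbers and at least 10 regions in each replicate. At sma-1 the numbers were 22, 18 and 6, at ajm-1 26, 22 and 12, at hmr-1 75, 53 and 24, and at zyx-1 22, 15 and 8. Replicate 2's ranked list is the shorter, with 40873 regions against 53820. At dlg-1 there were 8, 7 and 5, at erm-1 8, 5 and 4, and at wve-1 2, 1 and 3. Counting only summits inside the gene, the pooled list held from 2.01 regions per 10 kb at wve-1 to 16.2 at unc-70. The median over all protein-coding genes was 8.59. The highest signal and the highest density were thus both at unc-70. The lowest density was at wve-1, whose peak lies upstream of the gene and is left out of that count.

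The peaks were compared for short words within 100 bp of the summit, on both strands, over the 1537 nuclear pooled peaks. The TEAD core word CATTCC was in 8.59% of those peaks and at none of the 6 summits of the 9 genes. These 6 include the faint second region of spc-1, with a signal of 2.59, and without overlapping neighbours there were 5. The GATA word TGATAA, in 17.4% of all peaks, was at 1 summit, that of unc-70, where it falls inside the snoRNA gene. The E-box CACGTG (9.3% of all peaks) and the word GGTTCGA from the tRNA B box (12.9%) were at none. GAGAG was at all 6 and in 48.1% of all peaks, and within 50 bp it was at 3 of the 6 and in 31.6%. A further 3 words were searched after the sequences had been seen, so they say nothing beyond these peaks. CACACACA was at both spc-1 summits and in 5.99% of all peaks. TGGCNNAGT, from the tRNA A box, was at the unc-70 summit (6.31% of all peaks), and GTTCNANNC, from the B box, was at the ajm-1 summit (24.5%). A match is a description of letters and not of a binding site.

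The rank profile of unc-70, the gene of highest signal, was compared with 11672 genes over the pooled and both replicate ranked lists. The 3 nearest genes by the largest difference in rank percentile were T28F2.1 (0.00743 percentage points), the glutathione S-transferase gene gst-27 (0.013) and ipla-6 (0.0318). Their pooled signals were 141.53, 143.72 and 144.01, each at a region upstream of the gene, and the region of ipla-6 was shared with mif-4. The 3 genes were chosen by rank in these lists, so signals close to that of unc-70 follow from the choice.

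A list of 100 other genes of the same machinery gives the setting. Of these 100, 10 had a pooled peak (background 5.86%), 8 of them in the promoter window (background 4.03%). In both replicates' own lists there were 2 (background 1.52%). Among the 59 at least as long as the shortest of the 9 genes, 5 (8.47%) had a peak, where the background at that length was 11.1%. The strongest was at wip-1, which encodes the WASP-interacting protein: 194.06 pooled, 122 in replicate 1 and 74.8 in replicate 2, with the summit 299 bp upstream of a start. It was stronger than any peak of the 9 genes and in both replicates' lists, as was that of nfm-1, the worm merlin, a Hippo pathway regulator in other animals (109 pooled, 65.6 and 39.2 in the replicates). These 10 genes held 12 pooled peaks, since nfm-1 and inft-2 each had a faint second one (3.56 and 5.12) that overlapped the first. At 4 of the 10 genes the strongest peak lay within 300 bp of an RNA gene of any class, as did 36.8% of all nuclear pooled peaks. Those of inft-2 and nfm-1 lay near tRNA genes, and those of twf-2 and pkc-3 near other non-coding RNA genes.

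The other 8 were each in at most 1 replicate's own list. The inverted formin inft-2 had a pooled signal of 122, with 46.9 in replicate 1 and 74.1 in replicate 2, in an intron. The capping protein subunit gene cap-2 had 108, with 65.3 and 44.03 in the replicates. Only replicate 2's list held inft-2, and only replicate 1's held cap-2. The twinfilin gene twf-2 had 86.0, the abLIM gene unc-115 had 83.1, the RhoA gene rho-1 had 72.4 and the atypical protein kinase C gene pkc-3 had 70.1. The L1CAM gene sax-7 had 62.6 and the kindlin gene unc-112 had 60.3. The 3 genes rho-1, sax-7 and unc-112 were in neither replicate's list. No peak lay at the 5 spectrin partners, the 5 actins or the 10 bundling and myosin genes. Of the 18 other apical junction genes 2 had one, and of the 14 other genes of the WAVE, WASP and Arp2/3 group 1 did. By the same rule 5.86% of all nuclear protein-coding genes had a peak. These groups are small and were not tested.

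**Figure D4:**
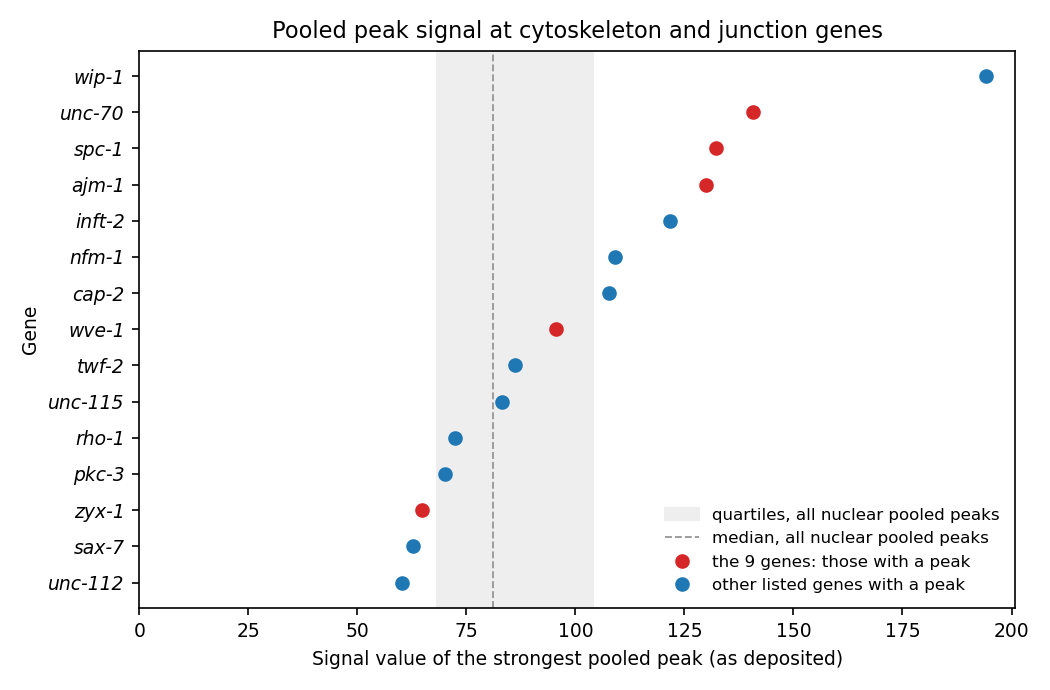
Signal of the strongest pooled peak (x axis, as deposited) at each gene with a pooled peak (y axis), for the 9 genes and the other listed genes; the grey band spans the quartiles (68.2 to 104) and the dashed line the median (81) of all nuclear pooled peaks. The genes unc-70, spc-1 and ajm-1 lie above the band, wve-1 inside it and zyx-1 below it.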

How the data were processed

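EGL-44::GFP ChIP-seq of 2 biological replicates was analysed from 8 region lists, a ranked and a thresholded list for each replicate, for the pooled data and for a conservative comparison. Signal values were used as the authors deposited them, in a scale that is not stated, and only within a list. The −log10 global IDR was read from the deposited ranked lists. For the aligner and the peak caller, the names and versions were not given in the sources used here. Coordinates are on ce11, per the labels; genes came from Ensembl release 115. The 8 input columns of the ranked lists carry no replicate name and were not used. Regions were matched between lists by an overlap of at least 1 bp.

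The members and lists were chosen with earlier results of these data known. Named were all 9 genes, the listed other genes with a pooled peak (up to 15), the 3 genes nearest to unc-70 in rank and the RNA genes within 300 bp of a summit of the 9. Of 101 listed other genes, 100 matched and tmd-1 did not. The alternative without overlapping neighbours, the ranks in other lists and 3 words were added after seeing the data. The code was tested on simulated data. Calculations used Python 3.11.15, NumPy 2.4.6 and Matplotlib 3.10.9.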

Additional observations from a re-analysis of the deposited data

How the results depend on the processing

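No paired analysis was possible because there was 1 group. The count of 5 genes with a pooled peak moved to 3 with a narrower promoter window (500 bp before to 100 bp after a start, which lost spc-1 and wve-1), to 3 without peaks at small RNA genes and to 3 when each summit went only to the nearest start, which lost unc-70 and wve-1. The narrower window left 3 of the 6 summits and 1 of the 4 genes with a promoter-window peak. With either replicate left out, summits were counted anew in the other replicate's own list. The ranges were then 3 to 4 genes with a peak, 4 to 5 summits and 2 to 3 promoter-window genes. They were 5 to 6 for the other listed genes and 437 to 646 for protein-coding genes. The 5 summits of replicate 1's list include 3 at ajm-1, and those farther left in the tRNA cluster overlap no pooled peak. An IDR limit of 0.001 gave 5 other listed and 494 protein-coding genes, and a limit of 0.05 gave 24 and 2276, against 10 and 1171. The conservative list and the stricter limit lost zyx-1, and the looser limit added hmr-1. The presence of spc-1, unc-70 and ajm-1 in both replicates' lists held under the stricter overlap rules tried. Ranks are limited by 2 replicates and an unknown depth.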
